A study of Homo sapiens with 62 samples.

Results

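The cytosolic ribosomal protein genes were the rows of 20 expression tables whose gene symbol was RPL or RPS followed by digits and at most a single trailing A or X, together with RPLP0, RPLP1, RPLP2 and RPSA. This gave 77 genes of the 55040 annotated rows, 46 of the large subunit and 31 of the small subunit, with a single row for each symbol. The rule for members used names and no measured value, but it was set with earlier results of these data known. The members lay on 21 chromosomes, and 12 of them were on chromosome 19. FAU, which encodes a ribosomal protein fused to a ubiquitin-like protein, has another kind of symbol and was not a member.

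The libraries came from GM12878, a human B-lymphoblastoid line that grows without limit because it carries the Epstein-Barr virus. Pools of 10 cells were divided into 10 parts, and each part was amplified with the SMARTer Ultra Low RNA kit and made into a Nextera library as if it were a single cell, so that the spread between parts measures the technique. The numbered set held 10 such splits whose titles count from 1 to 10. The unnumbered set held 10 splits whose titles give a library number (232, 233 and 246 to 253) and no split number. Both sets came from the same line, with no treatment named, and the other 42 samples of the series were not analysed here.

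Of the 10 unnumbered records, 9 carry a remark that their metadata may be out of date. The titles of all unnumbered records but split 247 also call them superseded by another series. The labels do not say outright that each set was a single pool. P-values therefore measure only the spread between splits, which may be technical. Consecutive laboratory experiment numbers put the libraries into 4 runs. Numbered splits 5 to 8 formed run a, and the 6 numbered splits left over formed run b. Among the unnumbered splits, 232 and 233 were run c and 246 to 253 were run d. The labels do not call these batches, and no run held splits of both sets, so set and run cannot be told apart.

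A ribosome is built from ribosomal RNA and a large and a small subunit set of proteins, nearly all present in a single copy per particle. The small subunit reads the messenger RNA and the large subunit joins amino acids and guides the new chain through its exit tunnel. Cells keep the protein genes at balanced output, and in vertebrates their messengers mostly begin with a C followed by a tract of pyrimidines, the terminal oligopyrimidine or TOP motif, through which the kinase mTOR controls their translation. In a dividing lymphoblastoid line these messengers are among the most abundant in the cell.

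Start regions are shown because the shared feature of these genes lies there. RefSeq entries of the GRCh38.p14 assembly, each reaching from 250 bases before to 50 bases after an annotated start, were matched by symbol for 62 of the 77 members. The 12 windows below hold the last 40 bases before the annotated start and the first 20 bases of the transcript. They belong to the abundant members RPL14, RPS18 and RPS3, to RPL13, RPL28 and RPS15, which of the tested members with an entry differed most between the sets, to RPS26, RPS10 and RPL10A, which of these differed least, and to RPL21, RPL41 and RPSA, which have their own places in the results. Capitals mark the unbroken run of C and T that spans the start, where the transcript begins with C and the run holds 5 or more bases from there on. Of several annotated starts, the one with the longest run is shown.
RPL14: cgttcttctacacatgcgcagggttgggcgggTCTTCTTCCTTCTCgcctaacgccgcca
RPS18: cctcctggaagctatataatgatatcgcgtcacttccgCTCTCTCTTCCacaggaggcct
RPS3: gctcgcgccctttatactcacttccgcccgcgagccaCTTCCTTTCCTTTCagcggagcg
RPL13: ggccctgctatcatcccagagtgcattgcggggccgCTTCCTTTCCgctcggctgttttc
RPL28: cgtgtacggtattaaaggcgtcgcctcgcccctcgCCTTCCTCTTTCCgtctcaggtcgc
RPS15: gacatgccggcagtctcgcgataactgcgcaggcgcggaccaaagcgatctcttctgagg
RPS26: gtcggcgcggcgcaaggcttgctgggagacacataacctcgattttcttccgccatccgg
RPS10: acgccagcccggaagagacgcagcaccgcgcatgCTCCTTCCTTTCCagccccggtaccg
RPL10A: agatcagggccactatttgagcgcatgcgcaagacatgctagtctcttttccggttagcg
RPL21: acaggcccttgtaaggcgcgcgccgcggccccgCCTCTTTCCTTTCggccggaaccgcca
RPL41: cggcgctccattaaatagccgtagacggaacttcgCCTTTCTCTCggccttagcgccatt
RPSA: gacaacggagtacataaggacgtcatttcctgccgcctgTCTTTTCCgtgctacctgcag
The windows of the abundant members were chr3:40457299-40457358 on the plus strand for RPL14, chr6:33272035-33272094 on the plus strand for RPS18, chr11:75399478-75399537 on the plus strand for RPS3. Those of the 3 members with an entry and the largest differences were chr16:89560642-89560701 on the plus strand for RPL13, chr19:55385892-55385951 on the plus strand for RPL28, chr19:1438356-1438415 on the plus strand for RPS15. Those of the 3 members with an entry and the smallest differences were chr12:56041878-56041937 on the plus strand for RPS26, chr6:34426050-34426109 on the minus strand for RPS10, chr6:35468361-35468420 on the plus strand for RPL10A. The remaining windows were chr13:27251518-27251577 on the plus strand for RPL21, chr12:56116593-56116652 on the plus strand for RPL41, chr3:39406680-39406739 on the plus strand for RPSA.

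In 9 of these 12 windows the transcript began with C inside a pyrimidine run of 8 to 14 bases, counted on both sides of the start. RPS26 began with G and RPL10A with A, and in RPS15 the C at the start was followed by an A, so these 3 have no capitals. Across the 62 members with an entry, 46 (74.2%) had a C at an annotated start followed without a break by C or T to a length of 5 or more, against 5.16% of all 27195 genes with an entry. A C at the start alone was found for 49 members (79.0%), against 18.03% of all genes. Genes with several annotated starts were counted once if any start matched. The annotated start need not be the one used in GM12878.

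Short words were also searched from 30 bases before to 50 bases after the start, on both strands and with overlaps allowed. CTTTCC lay on the given strand, which reads as the transcript does, of 23 members (37.1%), against 4.64% of all genes. CTCTTT was found for 19 members (30.6%) against 3.63%, and CTTTTC for 13 members against 3.96%. These 3 words overlap the pyrimidine run. On the other strand the same words were found for 1 to 2 members each (1.6% to 3.2%), against 3.39% to 4.57% of all genes. CCGGAAG, a core of sites bound by ETS family factors, was found for 3 members (4.8%) on the given strand and 2 (3.2%) on the other, against 2.93% and 2.88% of all genes. All of these counts describe letters in a window.

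Each file gave FPKM, fragments per kilobase of transcript and per megafragment mapped, so levels of different genes can be set side by side. Members were among the most abundant rows: 48 of the 100 rows with the highest mean FPKM were members, and 7 rows stood above the highest member, RPL14. The median member had a mean of 3616 FPKM in the numbered splits and 1793 FPKM in the unnumbered splits. In the numbered splits 74 members averaged 1000 FPKM or more and 23 averaged 5000 FPKM or more, against 62 and 3 members in the unnumbered splits.

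RPL14, a large subunit protein on the solvent face, averaged 18173 ± 3822 FPKM in the numbered splits and 8494 ± 2087 FPKM in the unnumbered splits (SD, n = 10 each). RPS18, in the head of the small subunit, averaged 13798 ± 2289 FPKM and RPS3, at the entry of the messenger channel, 12306 ± 2402 FPKM in the numbered splits. In the unnumbered splits the same genes averaged 7429 ± 1326 and 5244 ± 1079 FPKM. These 3 genes held the first 3 places in both sets. RPS29, a small zinc-binding protein, was next in the numbered splits at 11489 ± 2007 FPKM and eighth in the unnumbered splits at 3754 ± 710 FPKM. RPL31, beside the exit tunnel, averaged 10180 ± 1917 and 3926 ± 744 FPKM in the numbered and the unnumbered splits. RPS23, of the decoding centre, averaged 8280 ± 1341 FPKM in numbered and 3500 ± 684 FPKM in unnumbered splits.

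RPS9, RPL22, RPS26, RPL9 and RPS28 stood at the low end. RPS9, whose bacterial counterpart affects decoding accuracy, ranged between 254.5 and 798 FPKM in the numbered splits with a median of 322. In the unnumbered splits it ranged up to 280 FPKM with a median of 142, and it was listed at 0 in split 249. RPL22, which in cells with Epstein-Barr virus is known to bind a small viral RNA, ranged between 338 and 622 FPKM in the numbered splits. In the unnumbered splits it lay between 150.5 and 394 FPKM except in split 247 at 63.2 and split 253 at 0.280 FPKM. A value near 0 for a gene that every cell uses can be a failed estimate. RPS26, at the exit of the messenger channel, averaged 669 ± 160 FPKM in the numbered and 766 ± 162 FPKM in the unnumbered splits. In numbered and unnumbered splits RPL9 averaged 1293 ± 240 and 755 ± 121 FPKM, and RPS28 1374 ± 314 and 688 ± 143 FPKM.

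**Figure D1:**
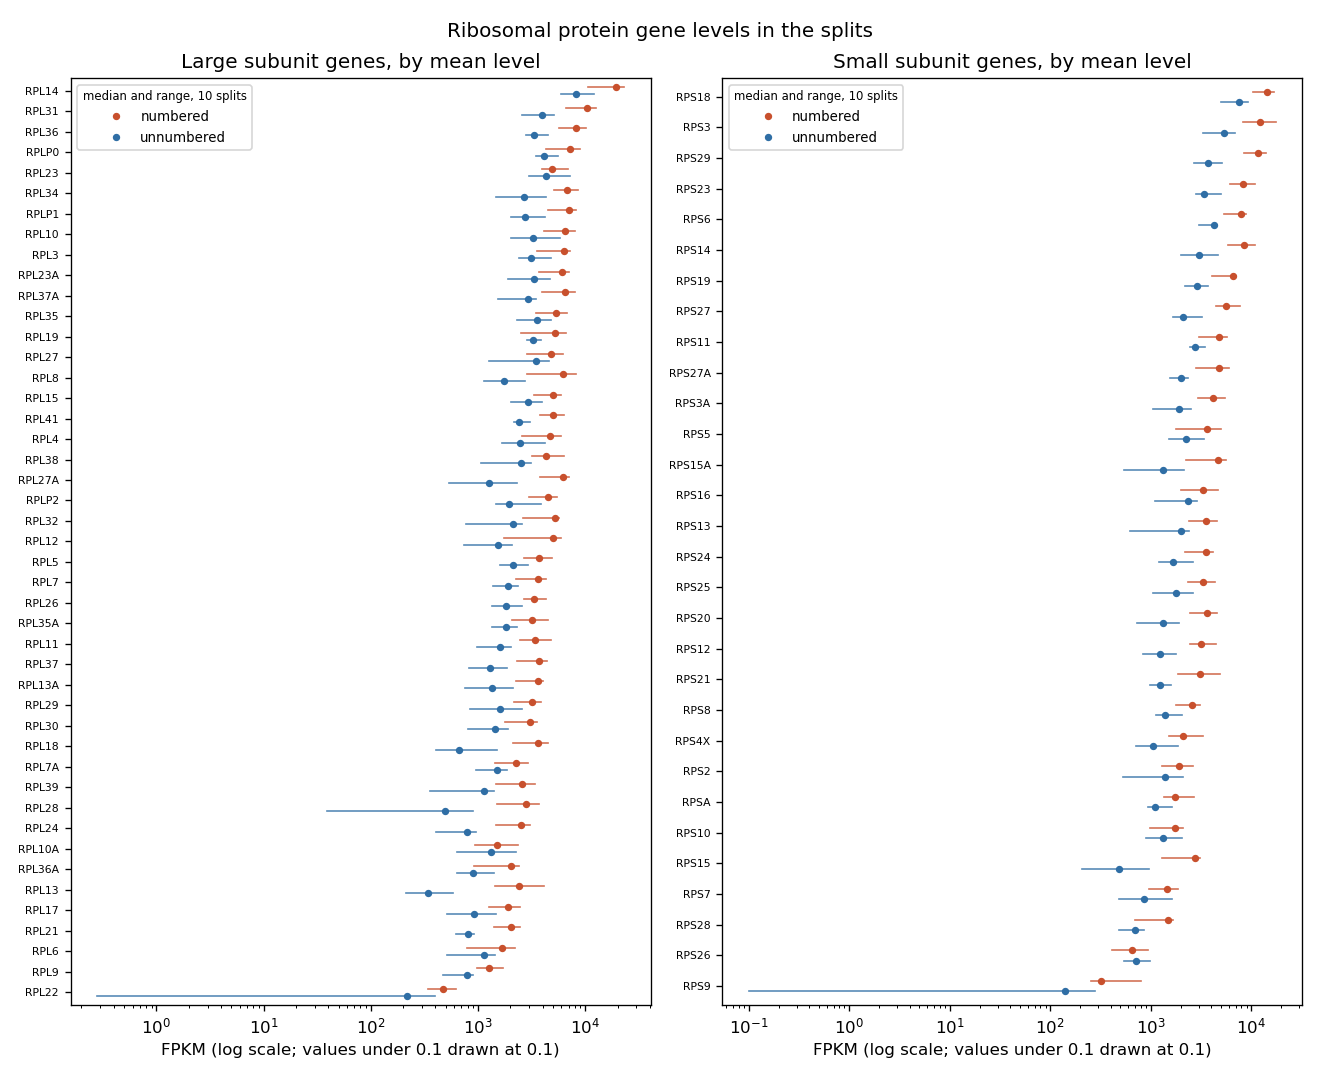
FPKM of the members on a log axis, large subunit genes on the left and small subunit genes on the right, in order of mean level. Points are medians and lines the range over the 10 numbered (red, upper) and 10 unnumbered (blue, lower) splits, and RPL14 at the top lies far above RPL22 and RPS9 at the bottom.

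The highest member mean was 49.0 times the lowest in the numbered splits and 57.7 times the lowest in the unnumbered splits. The middle part of the family was closer together, with an upper quartile 2.28 times the lower in the numbered and 2.33 times in the unnumbered splits. The 6 most abundant members carried 21.6% of the family's summed mean FPKM in the numbered and 20.9% in the unnumbered splits. The order was kept between sets as a whole: across the 77 genes the log2 levels had Pearson's r = 0.880 and Spearman's rho = 0.876, given as a description because genes are not independent. Neighbours in the order were not separated. Of 76 adjacent pairs by mean level, 0 were ordered alike in all 20 libraries. Across the 77 members the log2 level had r = -0.13 with log2 transcript length and r = 0.04 with GC content.

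The members together took a much larger share of each numbered library. They held between 22.3% and 26.01% of all summed FPKM in the numbered splits, with a median of 24.6%, and between 12.2% and 14.7% in the unnumbered splits, with a median of 14.1%. No numbered split overlapped any unnumbered split. The numbered splits averaged 24.5 ± 0.988% and the unnumbered splits 13.9 ± 0.708% (SD, n = 10 each), a difference of 10.6 percentage points. With protein-coding rows alone as the total, the shares were 33.1 ± 1.11% in numbered and 18.05 ± 0.802% in unnumbered splits, and the difference was 15.1 points. Within the numbered set the share was 24.3 ± 1.38% in run a (n = 4) and 24.7 ± 0.725% in run b (n = 6). FPKM are relative to a library's own total, and in pools of this kind fewer cells of a type and less RNA per cell cannot be told apart.

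Large and small subunit genes both held a larger share in the numbered splits. Large subunit members held 14.8 ± 0.704% of summed FPKM in the numbered and 8.50 ± 0.448% in the unnumbered splits, and small subunit members 9.74 ± 0.359% in numbered and 5.44 ± 0.413% in unnumbered splits. The ratio of large to small summed FPKM ranged between 1.41 and 1.59 in the numbered splits with a median of 1.53. In the unnumbered splits it ranged between 1.39 and 1.78 with a median of 1.56, so the numbered range lay inside the unnumbered one. On the log2 scale the ratio averaged 0.60 ± 0.05 in numbered and 0.65 ± 0.11 in unnumbered splits, a difference of -0.05 that is smaller than either SD. It was -0.03 without split 247 and 0.007 without splits 9, 247 and 253, so its sign was not kept when those splits were left out. Taking medians over genes in place of sums, the ratio averaged 1.19 ± 0.0903 over numbered splits and 1.13 ± 0.125 over unnumbered splits.

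**Figure D2:**
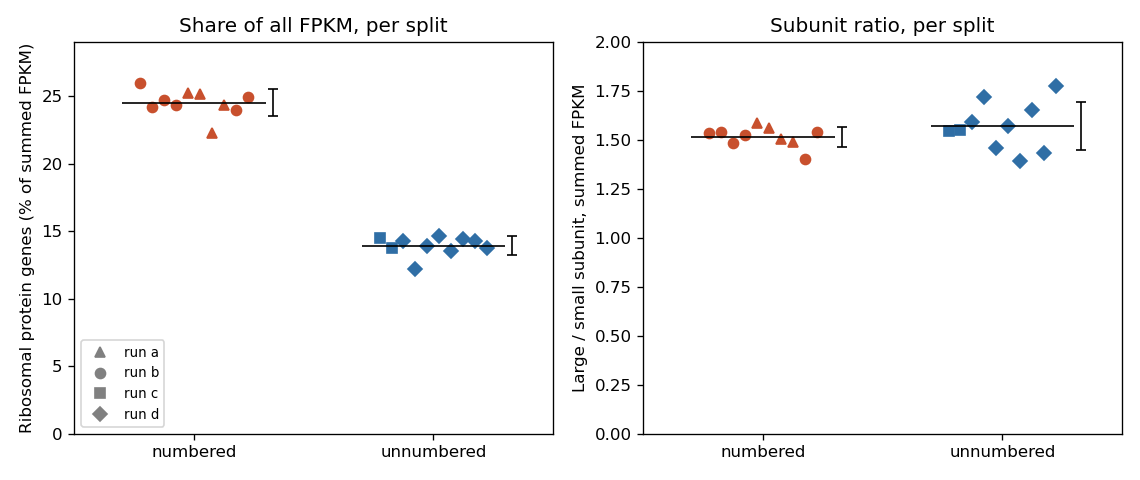
Percent of summed FPKM held by the 77 members (left) and ratio of large to small subunit summed FPKM (right) in each split, with symbols for the 4 runs, a line at the mean and a bar of 1 SD. The numbered splits on the left lie between 22.3% and 26.01%, all above the unnumbered splits, while the subunit ratios overlap.

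Depth, estimated from the authors' confidence bounds on mitochondrial rows, was 11.7 to 20.6 megafragments in the numbered splits. In the unnumbered splits it was 23.2 to 38.7 megafragments in 8 libraries, 7.78 in split 252 and 0.128 in split 247. The authors' bounds on a member's FPKM reached a median of 1.73% of the value to either side in the numbered and 1.91% in the unnumbered splits, and 31.8% in split 247, so that library is much less exact than the others. These bounds cover counting and assignment error and not amplification. Between 3771 and 7671 genes reached 1 FPKM in a numbered split and between 2942 and 4792 in an unnumbered split. B-cell markers were present, with CD74 at 5222 ± 1077 and 2328 ± 653 FPKM in numbered and unnumbered splits. The 8 B-cell markers together summed to between 4069 and 7759 FPKM in numbered splits and between 1557 and 3409 FPKM in unnumbered splits. CD74, MS4A1 and CD79A passed the test below as higher in the numbered set. Markers of other types were low: the 5 T-cell genes summed to at most 53.4 FPKM, the 5 myeloid genes to at most 53.8, the 5 erythroid genes to at most 0.206 and the 6 epithelial or fibroblast genes to at most 40.7, each in a numbered split. CD3D, CD14, S100A8, HBB, HBA1, HBA2, KRT18 and COL1A2 were listed at 0 in every library. The part of these markers in the results was not tested.

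Gene by gene, the numbered splits were compared with the unnumbered splits by limma on log2(FPKM + 1) over 10506 genes, with p-values adjusted by Benjamini and Hochberg's method and read against 0.05. Of the 76 members tested, 67 were higher in the numbered splits and 0 were lower, where 3.93% of all genes tested were higher and 1.38% lower. The numbers were 40 of 45 for the large and 27 of 31 for the small subunit. At an unadjusted p under 0.05 limma had 72 members higher and 0 lower, among 1214 higher and 500 lower genes. The exact rank-sum test with the same adjustment had 69 members higher and 0 lower, where 6.62% of all genes were higher and 2.32% lower. The median log2 difference was 1.07 over the members and 0.35 over all genes tested. The all-gene median moved with the pseudocount, the filter on level and the libraries used, as given in the last section. The member means were 2.06 times as high in numbered splits at the median, and 76 of 77 means were higher there. Among 424 other protein-coding genes at least as abundant as the lowest tested member, 12.3% were higher and 11.8% lower, with a median log2 difference of -0.13. Most of these were less abundant than the members, with a median of 526 FPKM over the 20 libraries.

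In 38 of the 77 members every numbered split was above every unnumbered split, where this held for 1.65% of all genes tested. No member had every numbered split below, where 0.352% of genes did. RPL29, the remaining member, was left out of the fit because its estimate carried a failed status in unnumbered split 232. It ranged between 2175 and 3847 FPKM in the numbered splits and between 837 and 2547 FPKM in the unnumbered splits, with the failed value at 2009.

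The members with the largest differences were RPL13, RPL28, RPS15, RPL18 and RPL27A. RPL13, a large subunit protein whose gene also hosts small nucleolar RNAs, had 1426, 2417 and 4091 FPKM as lowest, median and highest numbered split, against 211, 344 and 588.5 FPKM in the unnumbered splits. Every numbered split was above every unnumbered split, and the log2 difference was 2.70 ± 0.24 (SE, limma adjusted p = 3.85e-08). RPL28, a large subunit protein that bacteria lack, had 1513, 2815 and 3687 FPKM in the numbered splits, against 38.6, 488 and 888 FPKM in the unnumbered splits. Its ranges did not overlap either, and the lowest value, in split 253, stood far below the other unnumbered splits. The log2 difference was 2.70 ± 0.38 (SE, limma adjusted p = 2.06e-05).

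RPS15, on the small subunit head near the site where aminoacyl-tRNA enters, had 1284, 2739 and 3066 FPKM in the numbered splits, against 209, 486.5 and 953 FPKM in the unnumbered splits. The sets were apart, and the log2 difference was 2.41 ± 0.24 (SE, limma adjusted p = 1.30e-07). RPL18 had 2098, 3599 and 4529 FPKM as lowest, median and highest numbered value, against 408, 658 and 1503 FPKM in the unnumbered splits, with a log2 difference of 2.22 ± 0.24 (SE, limma adjusted p = 3.45e-07). RPL27A had 3795, 6140 and 7037 FPKM in the numbered splits, against 533, 1266 and 2291 FPKM in the unnumbered splits, with a log2 difference of 2.14 ± 0.19 (SE, limma adjusted p = 2.97e-08). Neither gene's sets overlapped. Each of these 5 members had a numbered mean more than 4 times its unnumbered mean, and their transcripts had a GC content of 52.0% to 62.1%.

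The members with the smallest differences were RPS26, RPL23, RPS10, RPL10A and RPL35. RPS26, which touches the messenger near the start codon, had 409, 650 and 944 FPKM as lowest, median and highest numbered split, against 542, 721 and 988 FPKM in the unnumbered splits. The sets overlapped almost completely, and the log2 difference was -0.20 ± 0.21 (SE, limma adjusted p = 0.605). RPL23, which lies at the subunit interface and can bind the p53 regulator MDM2, had 3923, 4898 and 6891 FPKM in the numbered splits, against 3019, 4347 and 7276 FPKM in the unnumbered splits. Its highest value was in the shallow split 247, and the difference was 0.18 ± 0.13 (SE, limma adjusted p = 0.536).

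RPS10, of the small subunit head, had a log2 difference of 0.32 ± 0.18 (limma adjusted p = 0.402), and RPL10A, of the mobile stalk where spent tRNA leaves, of 0.42 ± 0.23 (limma adjusted p = 0.362). Both had overlapping sets. RPL35, at the exit tunnel, ranged between 3442 and 6781 FPKM in numbered splits and between 2315 and 4747 FPKM in unnumbered splits. It passed the test with 0.51 ± 0.13 (SE, limma adjusted p = 0.0217), lost the call without run a (adjusted p = 0.105), with no filter on level (adjusted p = 0.146) and under both rescalings below, and had -0.06 when each library's trend of level on GC content was removed.

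Of the 9 members that did not pass, 7 had log2 differences of -0.20 to 0.66, namely RPS26, RPL23, RPS10, RPL10A, RPL6, RPL27 and RPS2. The other two, RPL22 and RPS9, had large fitted differences of 1.90 ± 0.72 and 1.93 ± 0.72 (SE, limma adjusted p = 0.148 and 0.139) that rest on their near-0 libraries. The exact rank-sum test gave both as higher, with adjusted p = 0.00508 and 0.00238. Without splits 9, 247 and 253, RPL22 had a difference of 0.996 and a limma adjusted p of 0.0134.

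**Figure D3:**
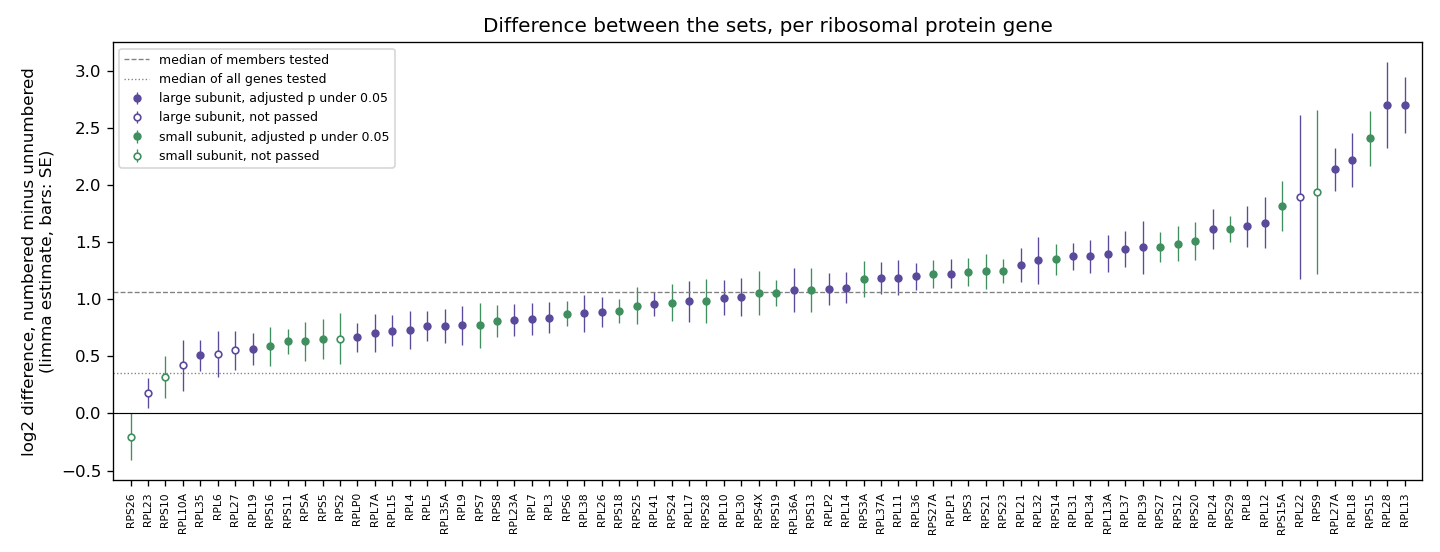
Log2 difference, numbered minus unnumbered, of the tested members in ascending order, with bars of 1 SE, filled where the limma adjusted p is under 0.05. RPS26 alone lies under 0, and RPL13 and RPL28 lie highest at 2.70, beside dashed and dotted lines at the member median of 1.07 and the all-gene median of 0.35.

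By role, all 4 genes of the stalk that recruits elongation factors were higher in the numbered splits. Among all members tested 67 of 76 were higher, and among all genes tested 3.93%. RPLP0, its base, averaged 6975 ± 1723 FPKM in numbered and 4301 ± 648 FPKM in unnumbered splits, with a log2 difference of 0.67 ± 0.13 (SE, limma adjusted p = 0.00135). RPLP1 and RPLP2, the acidic proteins that pair on it, differed by 1.22 ± 0.13 and 1.09 ± 0.14 (SE, limma adjusted p = 1.95e-07 and 8.14e-06). RPL12, which anchors the stalk, differed by 1.67 ± 0.22 (limma adjusted p = 9.78e-06). The ratio of RPLP1 to RPLP2 averaged 1.49 ± 0.173 in numbered and 1.37 ± 0.277 in unnumbered splits. The ratio of RPLP0 to RPLP1 was 1.03 ± 0.133 in numbered and 1.58 ± 0.517 in unnumbered splits (SD, n = 10 each).

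RPL5 and RPL11, which carry 5S ribosomal RNA and bind MDM2 when ribosome assembly fails, were both higher. RPL5 averaged 3660 ± 713 FPKM in the numbered and 2159 ± 432 FPKM in the unnumbered splits, and its log2 difference was 0.76 ± 0.13 (SE, limma adjusted p = 3.41e-04). RPL11 averaged 3445 ± 609 FPKM in numbered and 1536 ± 381 FPKM in unnumbered splits, with 1.19 ± 0.15 (SE, limma adjusted p = 4.18e-06). Of the 9 proteins around the exit tunnel 8 were higher, and RPL22 did not pass. Of the 6 proteins along the messenger path RPS3, RPSA, RPS28 and RPS14 were higher, and RPS2 and RPS26 did not pass. Over the whole family 67 of 76 were higher, and whether any role differs from the family was not tested.

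RPS6, the small subunit protein that S6 kinase phosphorylates, had 5370, 7871 and 8923 FPKM in the numbered splits, against 3029, 4250 and 4569 FPKM in the unnumbered splits. The sets did not overlap, and the log2 difference was 0.87 ± 0.11 (SE, limma adjusted p = 4.18e-06). RPS19 and RPS14, both linked to inherited or acquired anaemia in people, differed by 1.06 ± 0.12 and 1.35 ± 0.14 (SE, limma adjusted p = 5.88e-07 and 1.93e-07). RPL10, which joins the large subunit late in assembly, differed by 1.01 ± 0.15 (limma adjusted p = 5.94e-05). RPS27A, made as a fusion with ubiquitin, differed by 1.22 ± 0.12, and RPL41, the shortest of the proteins, by 0.96 ± 0.10 (limma adjusted p = 1.71e-07 and 4.42e-07).

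RPSA, also known as the laminin receptor, averaged 1886 ± 476 FPKM in numbered and 1213 ± 281 FPKM in unnumbered splits. Its log2 difference was 0.63 ± 0.17 (SE, limma adjusted p = 0.0239), and the call was lost without run a (adjusted p = 0.0601) and with no filter on level (adjusted p = 0.0514). Among the abundant members, RPS29 had the smallest adjusted p of the family, 7.25e-10 by limma, with a log2 difference of 1.62 ± 0.11. RPL14 differed by 1.10 ± 0.13, RPS18 by 0.90 ± 0.11, RPS3 by 1.24 ± 0.12, RPL31 by 1.37 ± 0.12 and RPS23 by 1.25 ± 0.11 (SE, all with limma adjusted p under 0.05).

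Scale moved the size of these differences. Scaling every library to the same FPKM total or by median-ratio size factors put the member median at 0.83, with all genes at 0.22 and 0.21, and 61 and 54 members were still higher. Size factors ended the calls of RPL9, RPL35, RPLP0, RPSA and RPL5 among the named members (limma adjusted p = 0.0589 to 0.371), and the common total those of RPL35 and RPSA. Removing each library's trend of level on transcript length left 39 of the 76 members higher and 0 lower, where 2.36% of all genes were higher and 2.4% lower, and the member median was 0.61. Removing the trend on GC content left 35 higher and 0 lower, where 2.06% of genes were higher and 2.11% lower, and the member median was 0.68. Among the named members, RPS28, RPL9, RPL35, RPS6, RPLP0, RPSA, RPL5 and RPL10 lost their calls under both trend removals, and RPS18, RPS19 and RPLP2 under the GC removal. Across the 76 tested members the log2 difference had r = 0.24 and rho = 0.07 with GC content and r = -0.01 with length, and across 10306 genes it had r = 0.14 and -0.15. In the 26 tested members with the highest GC content the median difference was 1.14, in the 25 of the middle class 0.96 and in the 25 of the lowest class 1.08. In the same GC ranges, in that order, the protein-coding genes outside the family and at or above the lowest tested member had medians of 0.40, -0.43 and -0.28.

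Members with the C and pyrimidine run at the start had a median log2 difference of 1.19 (45 tested), and those with an entry but without the run 0.77 (16 tested). RPL10A and RPS26, shown above without capitals, were among the smallest differences, whereas RPS15 and RPS29 also lacked the run and differed by 2.41 and 1.62. RPS10 and RPL35 had runs of 7 and 11 bases from the start on and differences of 0.32 and 0.51. This split of the members was looked at after their values were known and was not tested.

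To ask how the genes differed in proportion to each other, the median log2 level of the tested members was subtracted in each library. The limma fit was then repeated over all genes. The subtraction takes the same amount from the log2 difference of every gene, so the members keep the order of the first fit. Since it centres on the members' own median, members fall on both sides of 0 by construction. Of the 76 members 12 were then higher and 17 lower in the numbered splits, and 47 did not pass. The background of this fit was 1.47% of genes higher and 10.7% lower, since the subtraction lowers the difference of every gene, those near 0 included. Of the 424 protein-coding genes outside the family that reached the level of the lowest tested member 2.59% were higher and 51.4% lower in this fit. Dividing FPKM by the members' geometric mean before the log gave 9 members higher and 14 lower, with 1.72% of all genes higher and 5.4% lower. Without run a the counts were 7 higher and 9 lower, and RPL10A and RPS6 were no longer called (limma adjusted p = 0.0855 and 0.0813). The call of RPS6 was also lost without splits 9, 247 and 253 and with a smaller pseudocount of 0.1 (limma adjusted p = 0.0855 and 0.0527).

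RPL13, RPL28, RPS15, RPL18 and RPL27A led the higher side with centred log2 differences of 1.58 ± 0.19, 1.58 ± 0.37, 1.29 ± 0.21, 1.11 ± 0.22 and 1.02 ± 0.19 (SE). RPS15A, RPL12, RPL8, RPS29, RPL24 and RPS27 were also higher in proportion, at 0.34 to 0.70. RPS26, RPL23, RPS10, RPL10A and RPL35 led the lower side with -1.32 ± 0.17, -0.94 ± 0.14, -0.80 ± 0.16, -0.69 ± 0.19 and -0.61 ± 0.10 (SE). RPLP0 and RPS6 were also lower in proportion, by limma, at -0.45 and -0.24. Relative to the member median, RPL13 and RPL28 lay higher in every numbered split than in any unnumbered split, and RPS26, RPL23 and RPL19 lay lower in every numbered split. Such separation was found for 0.219% of all genes in the higher and 6.84% in the lower direction.

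RPS26 shows the pattern from the low side. Its level ran between 2.97 and 2.16 log2 units under the member median in the numbered splits, and between 1.62 and 0.84 under it in the unnumbered splits. RPL13 shows it from the other side, between 1.09 and 0.05 units under the median in the numbered splits and between 2.93 and 1.58 under it in the unnumbered splits. RPS26 ranked 75th of 77 by level in the numbered set and 69th in the unnumbered set, whereas RPL13 ranked 59th and 75th and RPL23 23rd and 4th.

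**Figure D4:**
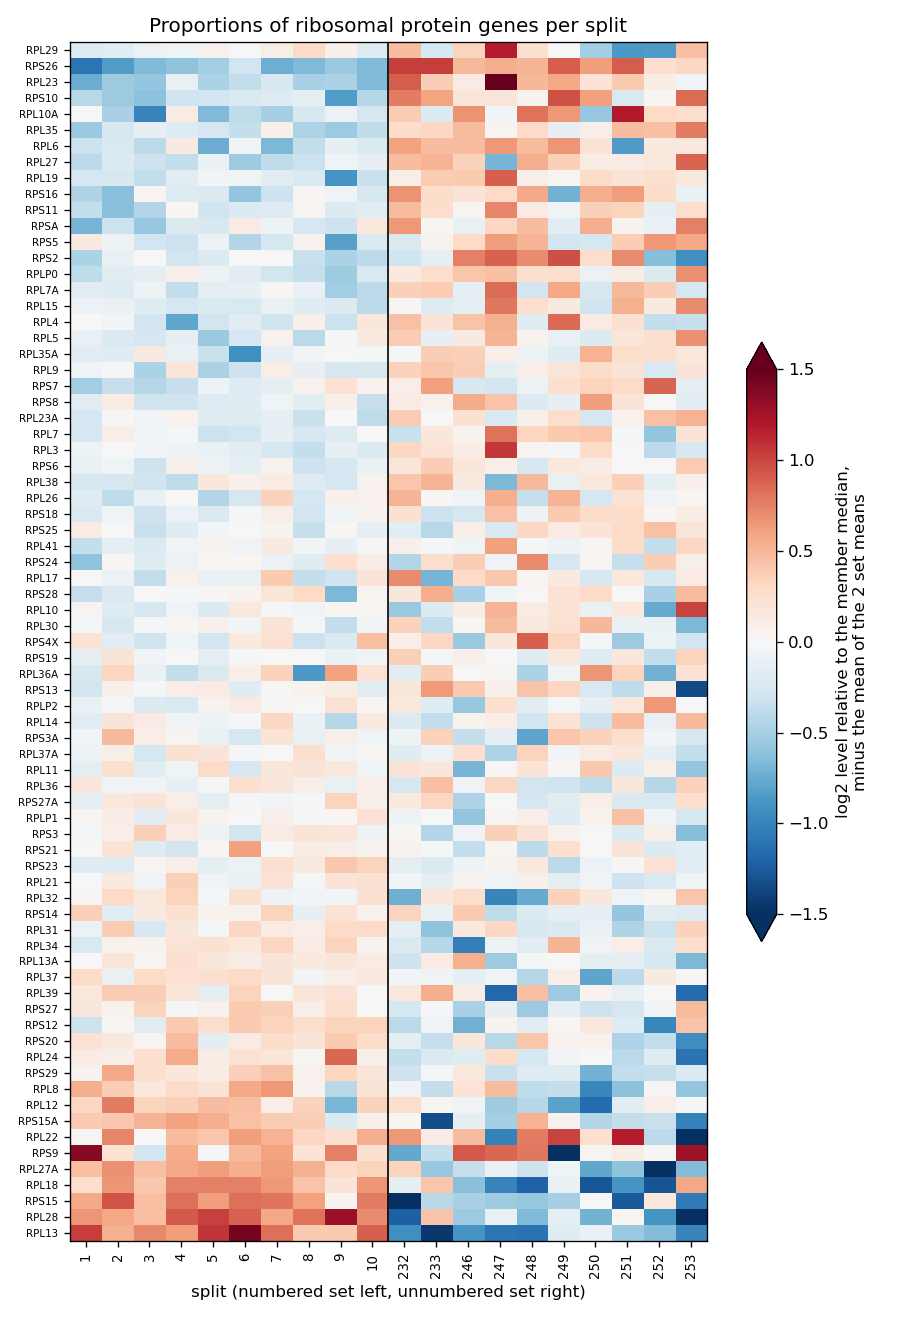
The members' log2 level relative to the member median of the library, minus the mean of the gene's 2 set means, by split, with numbered splits left of the line and unnumbered splits right of it. Rows run from RPS26 and RPL23, lower in proportion in all numbered splits, to RPL28 and RPL13, higher in all of them, under RPL29, which was not tested.

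Proportions were tighter among the numbered splits. The SD over 10 splits of a member's log2 level relative to the member median had a median of 0.20 in the numbered and 0.36 in the unnumbered splits. It was lower in the numbered set for 71 of 77 members, and the count was again 71 without split 247, without splits 9, 247 and 253, and without run a. The 424 other protein-coding genes at or above the level of the lowest tested member were also tighter in the numbered set at the median. Their median SDs were 0.67 in numbered and 0.75 in unnumbered splits, and their median CVs 0.441 and 0.486. Such a count was not made over all genes. The CV of FPKM itself was lower in the numbered set for 55 members, with member medians of 0.203 in numbered and 0.246 in unnumbered splits. At 1000 FPKM or more, the 73 members had median CVs of 0.202 in numbered and 0.246 in unnumbered splits, and 98 protein-coding genes outside the family 0.287 and 0.302 in the same sets. The levels were not alike: medians in the numbered splits were 3660 FPKM for these members and 1753 FPKM for the other genes. In the unnumbered splits they were 1842 and 1702 FPKM. The mean SD over both sets declined with level across the 77 genes (r = -0.62, rho = -0.48), as a description.

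RPL21, RPS6, RPS19 and RPLP1 kept the most constant proportions. RPL21 had SDs of 0.16 and 0.12 log2 units in numbered and unnumbered splits, and its level in the unnumbered splits was 793 ± 89.3 FPKM, a CV of 0.113. In numbered and unnumbered splits RPS6 had SDs of 0.14 and 0.18, RPS19 of 0.09 and 0.23, and RPLP1 of 0.11 and 0.27. RPL28, RPL18, RPL22 and RPS9 varied most. RPL28 had SDs of 0.25 in numbered and 1.26 in unnumbered splits, and RPL18 of 0.21 in numbered and 0.70 in unnumbered splits. RPL22 and RPS9 reached 2.40 in the unnumbered splits, where their near-0 values lie, against 0.24 and 0.46 in the numbered splits.

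**Figure D5:**
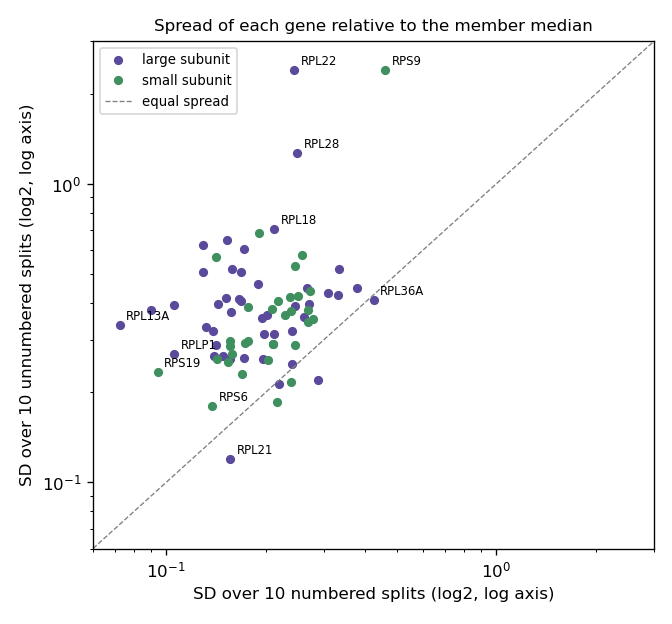
SD of each member's log2 level relative to the member median over the 10 numbered splits (x) and the 10 unnumbered splits (y), both on log axes. Of 77 points 71 lie above the dashed line of equal spread, with RPL22 and RPS9 near 2.40 on the y axis and RPL21 under the line.

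By library, the SD over members of the deviation from the set's mean profile ranged between 0.17 and 0.33 in the numbered splits and between 0.38 and 1.08 in the unnumbered splits. The highest were split 9 in the numbered set and split 253 in the unnumbered set, and split 253 held the low RPL22 and RPL28 values. Splits 249 and 253, with SDs of 0.93 and 1.08, had depths of 37.2 and 34.6 megafragments, and split 253 had the fewest genes at 1 FPKM, 2942. Single near-0 genes weigh heavily in these SDs. Relative to the member median, RPS9 was at -10.83 log2 units in split 249 and RPL22 at -10.35 in split 253. By rank, Spearman's rho with the mean profile of the other unnumbered splits was 0.913 for split 249 and 0.895 for split 253. Over all unnumbered splits it ranged between 0.891 and 0.940. The shallow split 247 had an SD of 0.50.

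Inside the numbered set, run a was compared with run b by the same limma fit. Of the 76 members, 0 passed in either direction, and 1 of the 10506 genes did (0.00952%, higher). At an unadjusted p under 0.05 there were 2 members and 562 genes. The member log2 differences ranged between -0.46 and 0.18 with a median of -0.14, against 0.22 over all genes, and the smallest member adjusted p was 0.824.

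Other genes of translation were set beside the members. FAU, a ribosomal protein gene outside the naming rule, was higher, with a log2 difference of 1.27 ± 0.21 (SE, limma adjusted p = 1.56e-04). Of 10 tested relatives limma called 2 higher and 0 lower, and the exact rank-sum test 3 higher and 1 lower after adjustment. Over all genes tested limma called 3.93% higher and 1.38% lower, and the exact rank-sum test 6.62% and 2.32%. RSL1D1, a nucleolar relative, averaged 804 ± 313 FPKM in numbered and 941 ± 404 FPKM in unnumbered splits (adjusted p = 0.753). Of 18 other TOP messengers tested, a list that also holds FAU, 7 were higher and 2 lower by limma, beside the same all-gene shares, with a median of 0.98. NPM1, the nucleolar chaperone nucleophosmin, was lower at 6774 ± 1724 FPKM in numbered and 10648 ± 1069 FPKM in unnumbered splits, a log2 difference of -0.69 ± 0.11 (SE, limma adjusted p = 1.75e-04). PABPC1, the poly(A)-binding protein, was the other lower gene at -0.85 ± 0.24 (limma adjusted p = 0.0367). GNB2L1, the ribosome-bound scaffold RACK1, averaged 6273 ± 1613 FPKM in numbered and 3988 ± 1154 FPKM in unnumbered splits and was not tested because of a failed status in 1 library.

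Ribosome biogenesis genes, which assemble the particles, were mostly not called. Of 40 tested, 0 were higher and 2 lower, NOP58 and DKC1, with a list median of -0.38. By limma 3.93% of all genes tested were higher and 1.38% lower. At an unadjusted p under 0.05 limma had 3 higher and 6 lower, and the exact rank-sum test had 0 higher and 3 lower after adjustment. NOP10 and NCL, the most abundant, had -0.19 ± 0.20 and 0.43 ± 0.27 (SE, limma adjusted p = 0.622 and 0.459). The median level of the list was 40.7 FPKM in numbered and 71.6 FPKM in unnumbered splits, with median CVs of 1.423 and 1.225. For the members the median CVs were 0.203 and 0.246, so a difference of the members' size can go uncalled in this list. Of 47 mitochondrial large subunit genes tested, 2 were higher (MRPL53 and MRPL23) and 1 was lower (MRPL51, -1.43 ± 0.30, limma adjusted p = 0.00266). The all-gene shares beside these counts are again 3.93% higher and 1.38% lower. Of 29 mitochondrial small subunit genes 0 passed in either direction by limma or by the exact rank-sum test, 2 were higher and 1 lower at an unadjusted limma p under 0.05, with MRPS18C at -1.89 ± 0.80 (adjusted p = 0.213). MRPL13, with a log2 difference of -0.74 ± 1.20, and MRPS18A, with -0.75 ± 1.31, were the next most abundant of their lists. Median CVs in numbered and unnumbered splits were 0.948 and 1.11 for the mitochondrial large subunit list. They were 0.841 and 0.983 for the mitochondrial small subunit list, so the same limit holds for both. Whether these lists differ from the members was not tested.

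Many members have processed pseudogenes, and reads of near-identical copies can be shared out between rows, so levels of such members are uncertain. Rows named as pseudogenes of a member were present for 69 of the 77 members, 412 rows in all. For 16 members they summed to more than 10% of the parent's FPKM in the numbered splits. They reached 387% and 413% of RPL9 in numbered and unnumbered splits, 239% and 243% of RPS26, 188% and 199% of RPL21, 99.0% and 95.8% of RPL41 and 63.4% and 62.1% of RPSA. The shares were close in both sets. RPL13 had 9.03% and 10.7%, RPL23 had 0.341% and 0.356%, and RPL28, RPL18, RPL27A and RPS15 had pseudogene rows at 0 or none.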

How the data were processed

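The 20 pool splits of GM12878 were analysed from the deposited Cufflinks gene tables, a table for each library. The values deposited by the authors are FPKM with their lower and upper confidence bounds and a status, for which the submitters' processing notes name TopHat 1.4.1 and Cufflinks 2.0.2. Neither their genome build nor their handling of repeated genes is given in the sources used here. FPKM carry no molecular identifiers and no counts, so amplification copies are not removed, and whole reads were not recovered.

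Sets were taken from the titles and runs from the laboratory experiment numbers. The members and gene lists were chosen with earlier results of these data known, so no list adds independent support.

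Rows with status FAIL in any library (128) or LOWDATA in every library (5797) were left out, which kept 49115 rows, and genes with a mean of 1 FPKM or more over the 20 libraries were tested. limma 3.58.1 in R 4.3.3, with a trended variance, was fitted to log2(FPKM + 1) over all 10506 genes, and fold differences on this scale understate those of low genes. The threshold was a Benjamini-Hochberg adjusted p of 0.05. The same fit was run after subtracting the median of the tested members in each library, and between runs a and b. The scripts were tested on simulated data. Descriptions used Python 3.11.15. Depth was estimated from the authors' bounds on mitochondrial rows. Length and GC content of transcripts were read from GENCODE 29 (48871 rows matched by ID, 2001 by symbol, 10306 of the tested genes with a value), and start sequences from RefSeq. No 2 libraries held identical values.

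Named members were the 6 highest and 6 lowest by level, the 5 largest and 5 smallest differences in each fit between sets, the 4 most and 4 least variable, 12 fixed for their roles and any member left out of the fit. From each other list the 2 most abundant genes were named. Other genes named were chosen after their values were seen. A few genes that these rules or lists hold are not reported here by name and are not drawn in the plots that name genes, though counts and medians include them. Alternatives were another pseudocount, filter, scaling, test or set of libraries. Removal of the GC trend and scaling by the members' geometric mean were added after seeing the data.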

Additional observations from a re-analysis of the deposited data

Results flagged for a closer look

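Among 166 groups of 10 values (each of the 77 members in each set, and 6 per-library summaries in each set), 13 held a library that stood apart from the other 9 by more than Dixon's limit for 10 values. Chance flags about 1 group in 20.

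In the numbered set, split 9 had the loosest profile of member proportions, with an SD of 0.334 log2 units against 0.251 in the next split. RPS9 was at 798 FPKM in numbered split 1, against 414 FPKM in the next, and RPS21 at 4852 FPKM in split 6, against 3408 FPKM.

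In the unnumbered set, split 247 had the lowest share of summed FPKM in the members, 12.2% against 13.5% in the next split, and the lowest RPL9, 468 FPKM against 678 FPKM. It also had the lowest RPL27, 1260 FPKM against 2852 FPKM, and the lowest RPL38, 1074 FPKM against 2127 FPKM. This was the shallowest library. RPLP2 was at 3905 FPKM in unnumbered split 252, against 2449 FPKM in the next, and RPL10 at 5753 FPKM in split 253, against 3553 FPKM. RPL24 was lowest in split 253, at 403 FPKM against 712.5 FPKM. RPL13A was at 2116 FPKM in split 246, against 1445 FPKM in the next, RPS4X at 1894 FPKM in split 248, against 1313 FPKM, and RPS7 at 1646 FPKM in split 252, against 1052 FPKM. The part of depth in these values was not tested.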

How the results depend on the processing

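No member was lower in the numbered splits under any of the 14 alternatives to the first fit, and the count of higher members stayed between 54 and 69 except when a trend was removed. It was 39 with the length trend removed and 35 with the GC trend removed. The median log2 difference of members was 0.83 with size factors or a common FPKM total, 0.61 with the length trend removed and 0.68 with the GC trend removed, and 1.04 to 1.13 otherwise. The median over all genes tested, 0.35 in the first fit, was less stable. It was 0.66 with a pseudocount of 0.1, 0.11 with a pseudocount of 10, 0.06 without run a and 0 with no filter on level. RPL35 turned to -0.061 with the GC trend removed (adjusted p = 0.898). Members higher and lower in proportion numbered 19 and 27 with no filter on level, where more genes were tested, 7 and 9 without run a, and 7 and 8 with run a as a covariate, and 9 to 16 and 12 to 23 otherwise. Without run a fewer samples were fitted. The share differed by 15.1 points with protein-coding rows as the total. The large to small log2 difference was 0.088 from median FPKM, against -0.05 from sums, and 0.007 from sums without splits 9, 247 and 253. Between runs a and b 0 members passed when any numbered split was left out. All genes called higher and lower between the sets numbered 413 and 145 in the first fit, 696 and 244 by the exact rank-sum test, 316 and 200 with size factors, 350 and 218 with a common total, 243 and 247 with the length trend removed and 212 and 217 with the GC trend removed. For changes that trends or scaling made, the cause was not tested. No paired analysis was possible because the sets share no replicate numbers. Summing all rows of a symbol changed nothing, since each symbol had a single row. Split 247, at 0.128 megafragments, cannot show small differences of single genes.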
